A study of Mus musculus with 18 samples.

Results

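Cells transfected with small interfering RNA (siRNA) against CYP1B1 and given vehicle were compared with cells transfected with scrambled siRNA and given vehicle, by RNA sequencing. The comparison was chosen from the labels: the 3 libraries labelled siCYP1B1 with vehicle against the 3 labelled scrambled with vehicle, which is 6 of the 18 libraries of the study. The test covered every gene whose mean over these 6 libraries reached 1 CPM (a gene's reads scaled so that all libraries have the same total), 11870 of the 15288 genes in the table, and 3418 genes fell below that minimum. All groups were mouse cells, by their labels from the endothelium of lung microvessels, grown in 60 mm dishes in an endothelial medium, and all received siRNA by lipid transfection (5 ul of a 10 uM stock), 2 hours after the medium was changed. No group without siRNA was analysed here. In all groups vehicle or estrogen was added 24 hours after transfection, for 24 hours in 5% serum. The other 12 libraries carried the same siRNAs and received 1 uM E2 (estradiol) or 1 uM 16aOHE (an estrone metabolite hydroxylated at its 16-alpha position). They show the same siRNA comparison in libraries that the vehicle difference did not use. All 18 libraries were fitted together, so these 12 also enter the estimate of spread behind the vehicle p-values. The labels number no replicates, and nothing in them ties the libraries to cultures grown apart. The p-values therefore reflect how these samples vary among themselves, and that variation may be technical.

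CYP1B1 is a cytochrome P450 of the endoplasmic reticulum that hydroxylates estradiol to catechol estrogens and also oxidizes polycyclic aromatic compounds. Its gene is a classical target of the aryl hydrocarbon receptor, and the enzyme has been studied in pulmonary arterial hypertension, where estrogen metabolism in lung vessels is a question of its own. An siRNA loads its guide strand into the RNA-induced silencing complex, which cuts transcripts that match the guide along its length and can also lower transcripts that match only the guide's seed, most often in their 3′ untranslated region (UTR).

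The labels, the title and the markers did not point to 1 cell type. The series title names smooth muscle cells, and the sample labels name endothelial cells. Among 19 endothelial markers in the table, 9 averaged under 1 CPM over the 6 libraries. Pecam1 averaged 0.0622 CPM in siCYP1B1 and 0.0632 CPM in scrambled libraries, and Vwf averaged 0.0132 CPM in siCYP1B1 and 0.0585 CPM in scrambled libraries, so that both defining endothelial genes were near 0. The remaining endothelial markers averaged more. Cd34 averaged 120 CPM and Flt1 79.4 CPM over the 6 libraries, both picked after their values were seen. Of 16 mesothelial markers 2 averaged under 1 CPM, Calb2 (0.0225 CPM over the 6 libraries) among them. Msln, the mesothelin gene, averaged 1403 ± 26.3 CPM in siCYP1B1 and 1645 ± 12.3 CPM in scrambled libraries (SD, n = 3 each). Fibroblast and pericyte markers averaged under 1 CPM in 6 of 12 cases, while Col3a1 averaged 2729 CPM in siCYP1B1 and 3510 CPM in scrambled libraries. Calb2, Msln and Col3a1 were picked after their values were seen. Of 11 smooth muscle markers 4 averaged under 1 CPM, Myh11 and Cnn1 among them, and so did 4 of 7 leukocyte markers, Ptprc among them, while the remaining markers of both lists, such as Cald1 of smooth muscle, averaged more. In each of the 6 libraries 1 CPM stood for 20.9 to 25.2 reads, as estimated from the steps of low values. The first library of each group had the highest score of its group on the third principal component (9.17% of the variance) in 6 of 6 groups, and pairs that held the first library differed by 4.19 to 5.41 times sampling noise in the 2 vehicle groups, against 2.37 and 2.47 for the remaining pairs.

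The targeted gene was lower by a small amount. Cyp1b1 (chr17:79706953-79715041, minus strand, mm10) had 80.8, 82.2 and 81.3 CPM in the siCYP1B1 libraries and 89.1, 91.4 and 96.1 CPM in the scrambled libraries. All 3 siCYP1B1 values lay below all 3 scrambled values. The log2 difference was -0.18 (SE 0.0345, adjusted p = 0.000979), a fall of 11.7%. A 2-sided exact permutation test gave p = 0.1, the smallest that 3 against 3 libraries allow. Among the called genes, 880 of those that rose and 825 of those that fell changed by more than Cyp1b1 on the log2 scale.

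A widespread set of small differences accompanied it. At an adjusted p under 0.05 (limma, Benjamini-Hochberg over all tested genes), 2442 genes were called (20.6% of those tested), of which 1358 were higher (11.4%) and 1084 lower (9.13%) with siCYP1B1. The median called change was 0.20 among the genes that rose and -0.25 among those that fell, on the log2(CPM + 1) scale, which understates changes near 1 CPM. Only 3 genes rose and 5 fell by at least 2-fold on that scale, and 43 rose and 98 fell by at least 1.5-fold. The 3 against 3 CPM values did not overlap for 4381 of the tested genes (36.9%), among them 1321 of the 1358 genes called higher and 1057 of the 1084 called lower. The share of calls that were higher was 55.6% on the deposited scale. It was 41.3% with median-of-ratios factors, which moved the median difference of all genes by -0.02 (log2), and 46.9% with quantile normalization, which moved it by -0.01. The count of genes called higher was 887 with median-of-ratios factors, 867 without siCYP1B1 vehicle 3, 853 without scrambled vehicle 2 and 836 without scrambled vehicle 3.

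**Figure D1:**
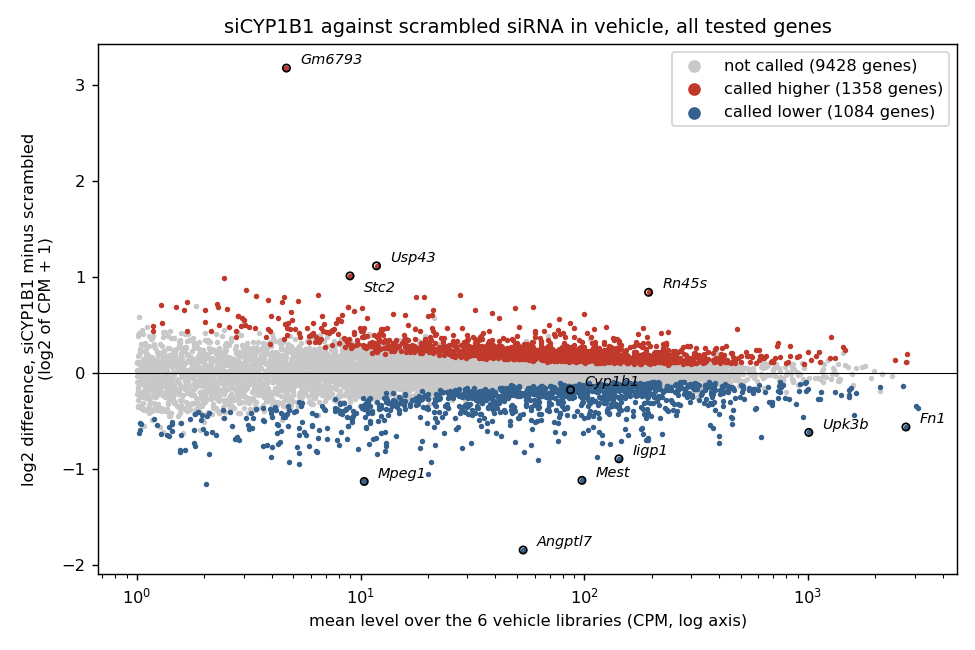
Each point is a tested gene, with its mean level over the 6 vehicle libraries (CPM, log axis) and its log2 difference, siCYP1B1 minus scrambled. Genes called higher are red, genes called lower are blue and the remainder are grey; Angptl7 stands lowest at -1.84, and Cyp1b1 at -0.18 lies close to the genes that were not called.

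The 3′ UTRs of the genes that fell were rich in 1 word of 7 bases, AAAGTCA, which an earlier result of these data had already singled out. It is given here on the strand of the messenger RNA, and the reverse complement was not searched. The word lay in 293 of 1041 searched UTRs of genes called lower (28.1%), in 95 of 1304 of genes called higher (7.29%) and in 13.4% of those not called, against 14.0% of all 11207 UTRs searched. Ranked by copies per kilobase of UTR in genes called lower over genes not called, it was first of the 10920 words with at least 50 copies in the genes called lower (0.202 against 0.104 per kilobase, a ratio of 1.94), and the next 2 words, TAAAGTC (1.90) and AAAAGTC (1.71), overlap it. The ranking measure and the limit of 50 copies were chosen after the files were at hand. Cyp1b1 holds the word at 2 sites of its own UTR, and the sites of 2 genes among the largest falls, Serpinb9 and Ctgf, are shown beside them. The sites are shown because each carries the word in a gene that fell (30 bases, 5′ to 3′ on the gene's strand, the word in capitals, GENCODE M21 on GRCm38).
Cyp1b1, first site, chr17:79709512-79709541, minus strand: gaatggaccatAAAGTCAgttgtcccctaa
Cyp1b1, second site, chr17:79708574-79708603, minus strand: tttttgtttttAAAGTCAgaatctgaagat
Serpinb9, first site, chr13:33016444-33016473, plus strand: ttcttgtgtatAAAGTCAataatttatagg
Serpinb9, second site, chr13:33016749-33016778, plus strand: atctcactactAAAGTCAagtatagaaata
Ctgf, chr10:24598251-24598280, plus strand: taagttaatttAAAGTCAtttgtttttgtt
The bases around the word differ from site to site. None of 1679 mature mouse miRNAs of the RefSeq table has a seed (bases 2 to 8) that pairs with the word. The sources used here do not give the sequence of the siRNA, so whether the word pairs with its seed was not tested.

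Genes with the word in their UTR stood lower than genes without it. Genes with 0 copies in the UTR had a median log2 difference of 0.04 (9635 genes), those with 1 copy -0.03 (1308 genes), those with 2 copies -0.08 (224 genes) and those with 3 or more -0.07 (40 genes). Of the genes with 2 copies 27.7% were called lower and 3.57% higher, against 7.76% and 12.5% of the genes with 0. Genes that held the word in their coding sequence but not in the UTR had a median of 0.01 (1380 genes). Longer UTRs hold more words of any kind, and the genes that fell had longer UTRs (median 1395 bases) than the genes that rose (812 bases) or those not called (1016 bases). Within 4 bins of UTR length, from short to long, the word lay in 7.84%, 16.0%, 24.4% and 49.4% of the UTRs of genes called lower, against 2.02%, 6.41%, 13.4% and 31.6% of those not called. Among genes called lower the word was not more common where the fall was larger, with UTR length left out of account. It lay in 23.7% of UTRs (median 1088 bases) where the fall was 0.5 or more on the log2 scale. It lay in 27.2% (1468 bases) where the fall was 0.25 to 0.5 and in 29.96% (1448 bases) where it was under 0.25. Shares at equal UTR length were not computed for these groups. Among the 23 genes named for the largest or most abundant falls, 22 had a searched UTR and 5 of these held the word, Serpinb9, Ctgf, Iigp1 and Lox among them. Of the 1041 searched genes that fell, 748 do not carry it.

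**Figure D2:**
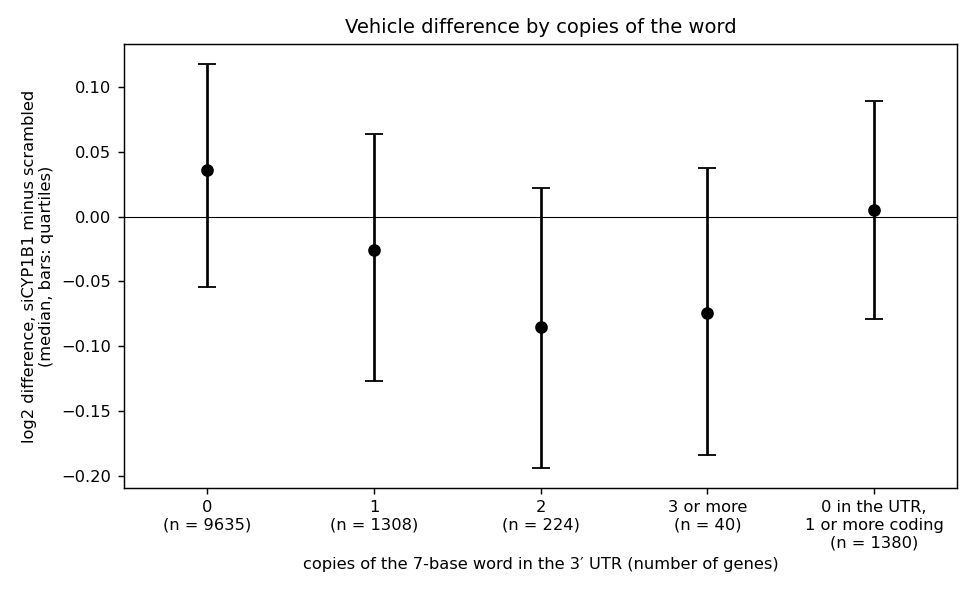
Median log2 difference, siCYP1B1 minus scrambled in vehicle, of genes grouped by copies of the 7-base word in the 3′ UTR, with the quartiles as bars. The medians are 0.04, -0.03, -0.08 and -0.07 for 0, 1, 2 and 3 or more copies, and the last group, a subset of the first, stands at 0.01.

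The largest falls were those of Angptl7, C4b, Mpeg1, Mest and Gdf6. Angptl7, an angiopoietin-like secreted protein, had 22.9, 22.2 and 22.6 CPM in siCYP1B1 and 97.4, 79.4 and 75.6 CPM in scrambled libraries, far apart (log2 -1.84, SE 0.117, adjusted p = 7.08e-10). Mest, an imprinted gene of the alpha/beta hydrolase family, had 56.2, 60.6 and 67.3 CPM in siCYP1B1 and 136, 135 and 131 CPM in scrambled libraries (-1.12). Mpeg1, a perforin-like protein best known from macrophages, had 6.22, 6.11 and 6.09 CPM in siCYP1B1 and 14.2, 14.3 and 15.4 CPM in scrambled libraries (-1.13). In all 3 genes every siCYP1B1 library lay below every scrambled library, which the rule for naming the largest changes required. Gdf6, a ligand of the BMP family, had 12.96, 14.04 and 10.98 CPM in siCYP1B1 and 27.7, 26.1 and 27.8 CPM in scrambled libraries (-1.05). Complement C4b (-1.15) shares sequence with C4a and is uncertain. The adhesion receptor Adgrb2 (-0.93), the claudin Cldn15 (-0.93), Tmem255a (-0.88), Csdc2 (-0.85), the secreted protease Prss12 (-0.85), the collagen crosslinking enzyme Loxl1 (-0.84) and the collagen-repeat protein Cthrc1 (-0.83) also fell.

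Serpinb9, an inhibitor of granzyme B, had 41.9, 42.3 and 44.99 CPM in siCYP1B1 and 80.98, 84.2 and 79.1 CPM in scrambled libraries (-0.90, SE 0.0494, adjusted p = 1.03e-10). Ctgf, which codes for a matricellular CCN protein, had 82.1, 80.9 and 76.2 CPM in siCYP1B1 and 131, 154 and 159 CPM in scrambled libraries (-0.88, SE 0.0968). The UTR sites of both genes are printed above. Groups without overlap were a condition for naming them. Further abundant genes that fell were the transferrin gene Trf (-0.74), the sialomucin Cd34 (-0.73), the sphingomyelinase Smpd3 (-0.66), the lysyl oxidase Lox (-0.66) and 4 interferon-induced GTPases. These were Iigp1 (-0.89), Tgtp1 (-0.71), Tgtp2 (-0.67) and Gvin1 (-0.70), of which Tgtp1, Tgtp2 and Gvin1 belong to families of near-identical copies and are uncertain.

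Among the genes that the naming rule covers, which leaves out predicted genes, the largest rises were those of Usp43, Stc2 and Ly6d. Usp43, a deubiquitinase, had 18.1, 16.2 and 15.2 CPM in siCYP1B1 and 6.86, 6.62 and 7.77 CPM in scrambled libraries (log2 1.11, SE 0.101, adjusted p = 1.14e-07). Stc2, a secreted stanniocalcin that inhibits a protease of IGF-binding proteins, had 10.7, 12.8 and 13.5 CPM in siCYP1B1 and 5.75, 5.71 and 5.35 CPM in scrambled libraries (1.01, SE 0.0953). Bhlhe41, a repressor of the circadian clock, had 25.9, 22.9 and 25.03 CPM in siCYP1B1 and 14.6, 13.98 and 12.8 CPM in scrambled libraries (0.79). The groups did not overlap in any of the 3, which was a condition for naming them. The other named rises were Ly6d (0.99), Serpinb10 (0.87), the serine protease Htra3 (0.81), the nicotinic receptor subunit Chrna6 (0.79), the matrix protein Tgfbi (0.76), Radil (0.75), the receptors Havcr2 (0.74) and C3ar1 (0.73) and the imprinted zinc finger gene Plagl1 (0.72). The levels of Prl2c2 (0.79) and Rps16 (0.80) are uncertain, since closely similar copies of both exist. Rn45s, the ribosomal RNA precursor, had 459.6, 171 and 151 CPM in siCYP1B1 and 118, 121 and 143 CPM in scrambled libraries, and siCYP1B1 vehicle 1 stood far above the rest. Its rise (0.84, adjusted p = 0.0408) became 0.33 without that library and was not called, nor was it without scrambled vehicle 1 (0.79), 2 (0.81) or 3 (0.92).

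Among abundant genes, those that averaged 100 CPM or more, the named rises other than that of Rn45s were of 0.47 or less. Atf5, a transcription factor of the amino acid and mitochondrial stress response, had 148, 139.8 and 152 CPM in siCYP1B1 and 103, 109 and 104 CPM in scrambled libraries (0.47, SE 0.0472). The receptor Notch1 (0.43), the tetraspanin Tspan7 (0.41) and Cpt1a (0.41), the carnitine transferase that admits fatty acids to mitochondria, rose as well. So did the ferritin genes Ftl1 (0.45) and Fth1 (0.37), the ribosomal protein genes Rpl41 (0.47) and Rplp1 (0.45) and the cyclophilin Ppia (0.41), all with many processed copies in the mouse genome that make their levels uncertain. In each of these genes the 3 siCYP1B1 values lay above the 3 scrambled values, which the naming rule required. The call of Rpl41 was lost without scrambled vehicle 2 (0.42).

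**Figure D3:**
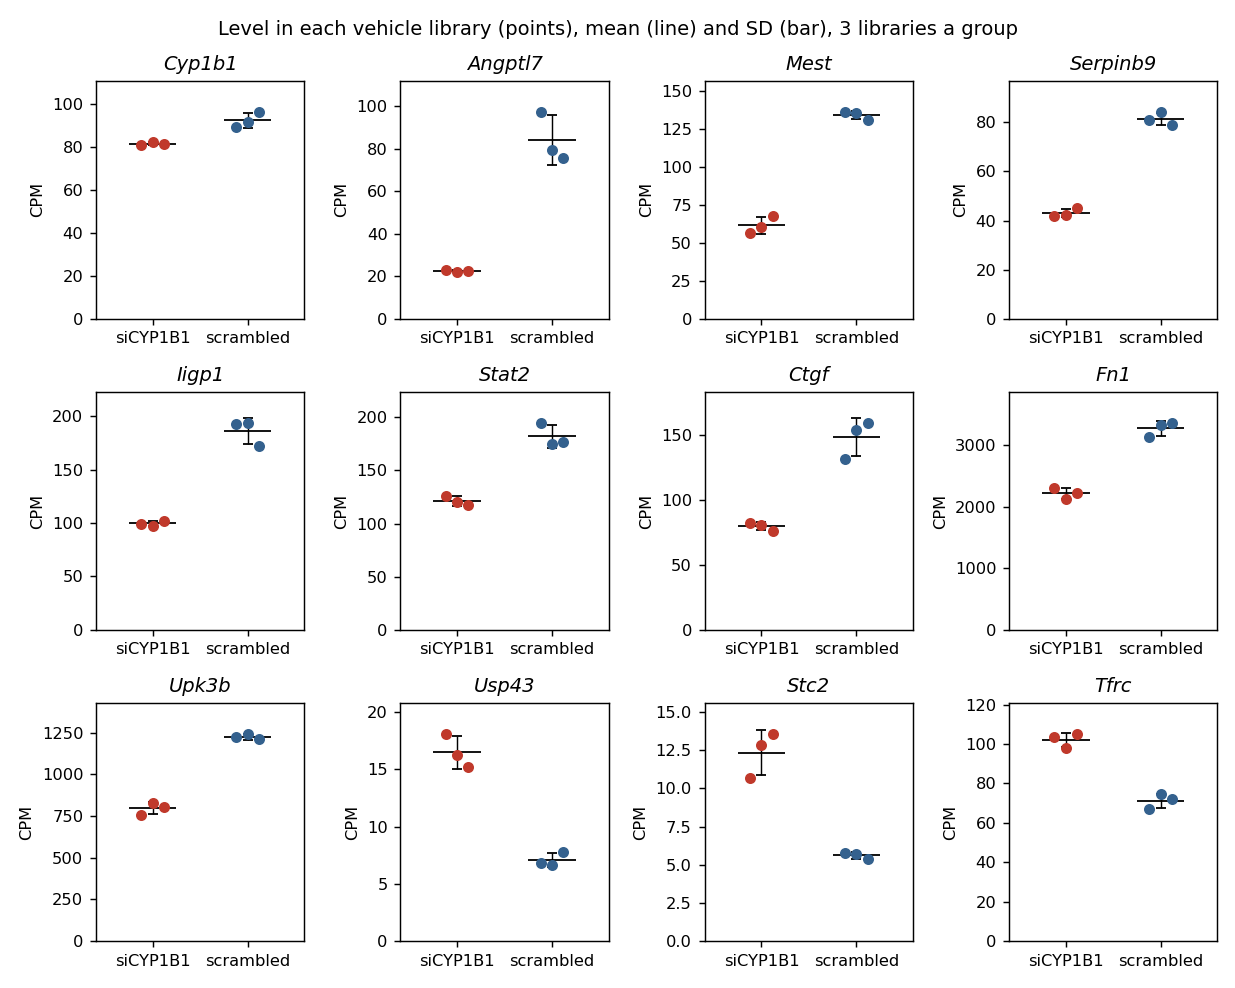
CPM of 12 genes in each of the 3 siCYP1B1 and 3 scrambled vehicle libraries (points), with the group mean (line) and SD (bar). In every panel the groups are separate, which the naming rule required of the largest and abundant changes. The log2 difference is smallest for Cyp1b1, at 81.5 ± 0.724 CPM in siCYP1B1 and 92.2 ± 3.58 CPM in scrambled libraries.

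Genes were then read by their roles, from lists whose counts stand beside the shares of all tested genes (11.4% higher, 9.13% lower) and the median difference of all tested genes, 0.03. Some genes stand on more than 1 list (Dcn, Igfbp5, Zbp1 and Hsd17b7 among those named). Some genes of estrogen metabolism changed, by small amounts and in both directions. Of 12 tested enzymes 2 rose and 3 fell, and the median was 0.07. Both shares lie above those of all tested genes, on a short list. Hsd17b10, a mitochondrial hydroxysteroid dehydrogenase, had 55.5, 60.2 and 65.1 CPM in siCYP1B1 and 52.8, 51.4 and 50.1 CPM in scrambled libraries (0.22), and Hsd17b7, which acts on estrone and in cholesterol synthesis, fell by 0.21 on the log2 scale. The call of Hsd17b10 was lost without siCYP1B1 vehicle 2 (0.22) or 3 (0.17) or scrambled vehicle 2 (0.22) or 3 (0.20). That of Hsd17b7 was lost without siCYP1B1 vehicle 1 (-0.18) or scrambled vehicle 2 (-0.17) or 3 (-0.16). On the list of the aryl hydrocarbon receptor pathway, 8 genes were tested, 2 fell (Ahr and Cyp1b1) and 1 rose. Ahr, the receptor that drives Cyp1b1, had 23.7, 22.5 and 19.7 CPM in siCYP1B1 and 29.9, 33.2 and 29.1 CPM in scrambled libraries and fell (-0.47, adjusted p = 0.000197). Aldh3a1, an aldehyde dehydrogenase induced through this receptor, rose (0.41, adjusted p = 0.0192), a call that was lost without siCYP1B1 vehicle 3 (0.35) or scrambled vehicle 2 (0.38) or 3 (0.35). The receptor's targets Tiparp (-0.02) and Nqo1 (0.06) and its partner Arnt (0.02) did not pass the test and stand outside the naming rule. Esr1, the gene of estrogen receptor alpha, outside the naming rule, had 13.5, 13.9 and 13.8 CPM in siCYP1B1 and 13.7, 16.7 and 13.4 CPM in scrambled libraries, with overlapping groups, and was not called (adjusted p = 0.634).

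Markers of mesothelial cells were lower almost throughout. Of 14 tested markers 13 fell and 0 rose, with a median of -0.43, and the counts were the same under each scaling tried. Upk3b, a uroplakin of the mesothelial surface, had 757, 828 and 805 CPM in siCYP1B1 and 1221, 1239.9 and 1210.0 CPM in scrambled libraries (-0.62), and Wt1, a transcription factor of the mesothelium, had 223, 226 and 223 CPM in siCYP1B1 and 302, 291 and 294 CPM in scrambled libraries (-0.40); both were picked after their values were seen. By the naming rule stood Cldn15 (-0.93), the IGF-binding protein Igfbp5 (-0.82), the Wnt agonist Rspo1 (-0.80) and the keratin Krt18 (-0.67). The summed level of the 16 markers in the table ran from 5667 to 5890 CPM in siCYP1B1 and from 7246 to 7413 CPM in scrambled libraries. Summed fibroblast and pericyte markers ran from 5233 to 5532 CPM in siCYP1B1 and from 6563 to 6922 CPM in scrambled libraries, and summed endothelial markers from 218 to 223 CPM in siCYP1B1 and from 294 to 334 CPM in scrambled libraries. Of 10 tested endothelial markers 4 fell and 0 rose, Cd34 (-0.73), Mcam (-0.69), Esam (-0.37) and Flt1 (-0.34). Of 7 smooth muscle markers Tagln (-0.69) and Acta2 (-0.57) fell. In bulk RNA fewer cells of a type and less of its RNA per cell cannot be told apart, and the part of cell makeup in the gene groups described next was not tested.

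Genes of the extracellular matrix that passed the test mostly fell. Of 26 matrix glycoproteins and elastic fibre genes 12 fell and 1 rose (median -0.20). Fn1, the fibronectin gene, had 2303, 2127 and 2216 CPM in siCYP1B1 and 3129, 3335 and 3359 CPM in scrambled libraries (-0.56, SE 0.0794), and the groups lay well apart. The fibulin Fbln5 (-0.66) and the latent TGF-beta binding protein Ltbp2 (-0.81) of elastic fibres fell too, whereas Tgfbi rose. Of 22 collagen chains 10 fell and 3 rose (median -0.20), the falls led by Col8a2 (-0.73), Col11a1 (-0.62) and Col16a1 (-0.46). The call of Col8a2 was lost without the first library of both groups (-0.60). The 3 chains that rose were Col4a1, Col4a2 and Col7a1, and with median-of-ratios factors 0 chains rose. The call of Col7a1 (0.69) was lost in 5 of the 6 fits that left out 1 library (0.57 to 0.73). Col3a1, a fibrillar chain and also on the fibroblast list, had 2721, 2798 and 2669 CPM in siCYP1B1 and 3548, 3426 and 3555 CPM in scrambled libraries (-0.36).

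Some enzymes that join and trim collagen fell too. Of 18 crosslinking and processing enzymes 6 fell and 1 rose (median -0.10). Lox had 322, 313 and 293 CPM in siCYP1B1 and 436, 488 and 544 CPM in scrambled libraries, and Plod2, a lysyl hydroxylase, had 160.3, 153 and 160.1 CPM in siCYP1B1 and 214, 209.6 and 212 CPM in scrambled libraries (-0.42). Of 14 small leucine-rich proteoglycans and hyaluronan genes 5 fell and 0 rose, including the decorin gene Dcn (-0.54), the biglycan gene Bgn (-0.47) and Ogn (-0.41). Of 25 metalloproteinases, their inhibitors and serine proteases of the Htra family 8 fell and 1 rose. The inhibitor Timp3 had 1365, 1389.9 and 1323 CPM in siCYP1B1 and 1765, 1849.8 and 1928 CPM in scrambled libraries (-0.44), and the aggrecanase Adamts5 fell by 0.45 on the log2 scale, while Htra3 was the riser.

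Genes of the TGF-beta pathway and targets of YAP were lower more often than higher. Of 28 TGF-beta ligands, receptors and feedback genes 10 fell and 2 rose (median -0.09). Beside Gdf6 these included the activin subunit Inhba (-0.57), the feedback inhibitor Pmepa1 (-0.50) and the follistatin-like Fstl1 (-0.46). Of 29 YAP targets and CCN genes 9 fell and 1 rose (median -0.13), with the CCN genes Wisp1 (-0.44) and Cyr61 (-0.31) and the angiomotin-like Amotl2 (-0.27) next to Ctgf. With median-of-ratios factors or quantile normalization 0 of the YAP list rose. Of 13 BMP pathway genes 4 fell and 1 rose, the inhibitor Bmper (-0.43) among the falls, but 1 fell without the first library of both groups. Of 27 Wnt pathway genes 10 fell and 2 rose, with the secreted antagonist Sfrp4 at 33.1, 37.6 and 39.3 CPM in siCYP1B1 and 66.8, 62.9 and 53.5 CPM in scrambled libraries (-0.72).

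Part of the genes of vessel growth and tone fell. Of 18 angiopoietin, VEGF and semaphorin genes 7 fell and 2 rose. Flt4, the receptor of lymphatic VEGF ligands, had 66.1, 67.6 and 57.6 CPM in siCYP1B1 and 95.9, 97.1 and 104 CPM in scrambled libraries (-0.63, SE 0.0636). Flt1, which binds VEGF-A, had 70.7, 70.1 and 69.2 CPM in siCYP1B1 and 89.3, 88.6 and 88.9 CPM in scrambled libraries (-0.34). Neither pair of groups overlapped. Of 14 endothelin and vasoactive genes 6 fell and 0 rose. They included the endothelin ligands Edn1 (-0.61) and Edn2 (-0.56) and Ptgis, the prostacyclin synthase, which had 415, 436 and 433 CPM in siCYP1B1 and 509, 523 and 508 CPM in scrambled libraries (-0.26). On the Notch list of 15 genes 3 rose, Notch1 and Dtx4 (0.33) among them, and the glycosyltransferase Lfng (-0.49) fell. Of 17 FGF pathway genes 4 fell and 0 rose, among them the transcription factor Etv5 (-0.33).

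On the list of the interferon response every gene that passed the test fell, and most members did not pass. Of 45 tested genes 20 fell and 0 rose (44.4% against 9.13% of all genes, median -0.13), and 16 fell without the first library of both groups. Iigp1 had 99.6, 97.6 and 102 CPM in siCYP1B1 and 193, 194 and 172 CPM in scrambled libraries (SE 0.0482, adjusted p = 1.03e-10). Stat2, a transcription factor of the response to type I interferon, had 126, 120.1 and 118 CPM in siCYP1B1 and 195, 174 and 177 CPM in scrambled libraries (-0.58). The chemokine Cxcl10 had 31.7, 29.5 and 33.2 CPM in siCYP1B1 and 54.8, 48.9 and 44.03 CPM in scrambled libraries (-0.63). Every siCYP1B1 library lay below every scrambled library in these genes, which the naming rule required of Iigp1. Among 23 sensors of double-stranded RNA and genes of the RNA interference machinery, Zbp1, a sensor of unusual nucleic acid forms, fell (-0.51). Of the same 23 genes 3 rose, but 0 without the first library of both groups. Of 19 antigen presentation genes 5 fell and 2 rose, with Tapbp (-0.31), the peptide loading factor of class I molecules, at 309, 308 and 307 CPM in siCYP1B1 and 375, 383 and 387 CPM in scrambled libraries; 2 fell without the first library of both groups.

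Other immune genes moved in smaller numbers. Of 15 complement genes 6 fell and 2 rose, among them C1s1 (-0.77), a protease of the classical pathway. Of 17 chemokines and cytokines 5 fell and 0 rose, including the alarmin Il33 (-0.35) and the chemokine Cxcl16 (-0.47), but 3 fell without the first library of both groups. Of 21 NF-kB genes 2 fell and 1 rose, shares near or below those of all tested genes (9.13% lower, 11.4% higher). Of 14 serpins 5 fell and 3 rose. On the list of 25 immediate early genes, which is not an immune list, the named calls were few and mixed. Fosl1 rose (0.44), and Fosl2 (-0.23), Klf6 (-0.18) and Dusp6 (-0.15) fell.

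**Figure D4:**
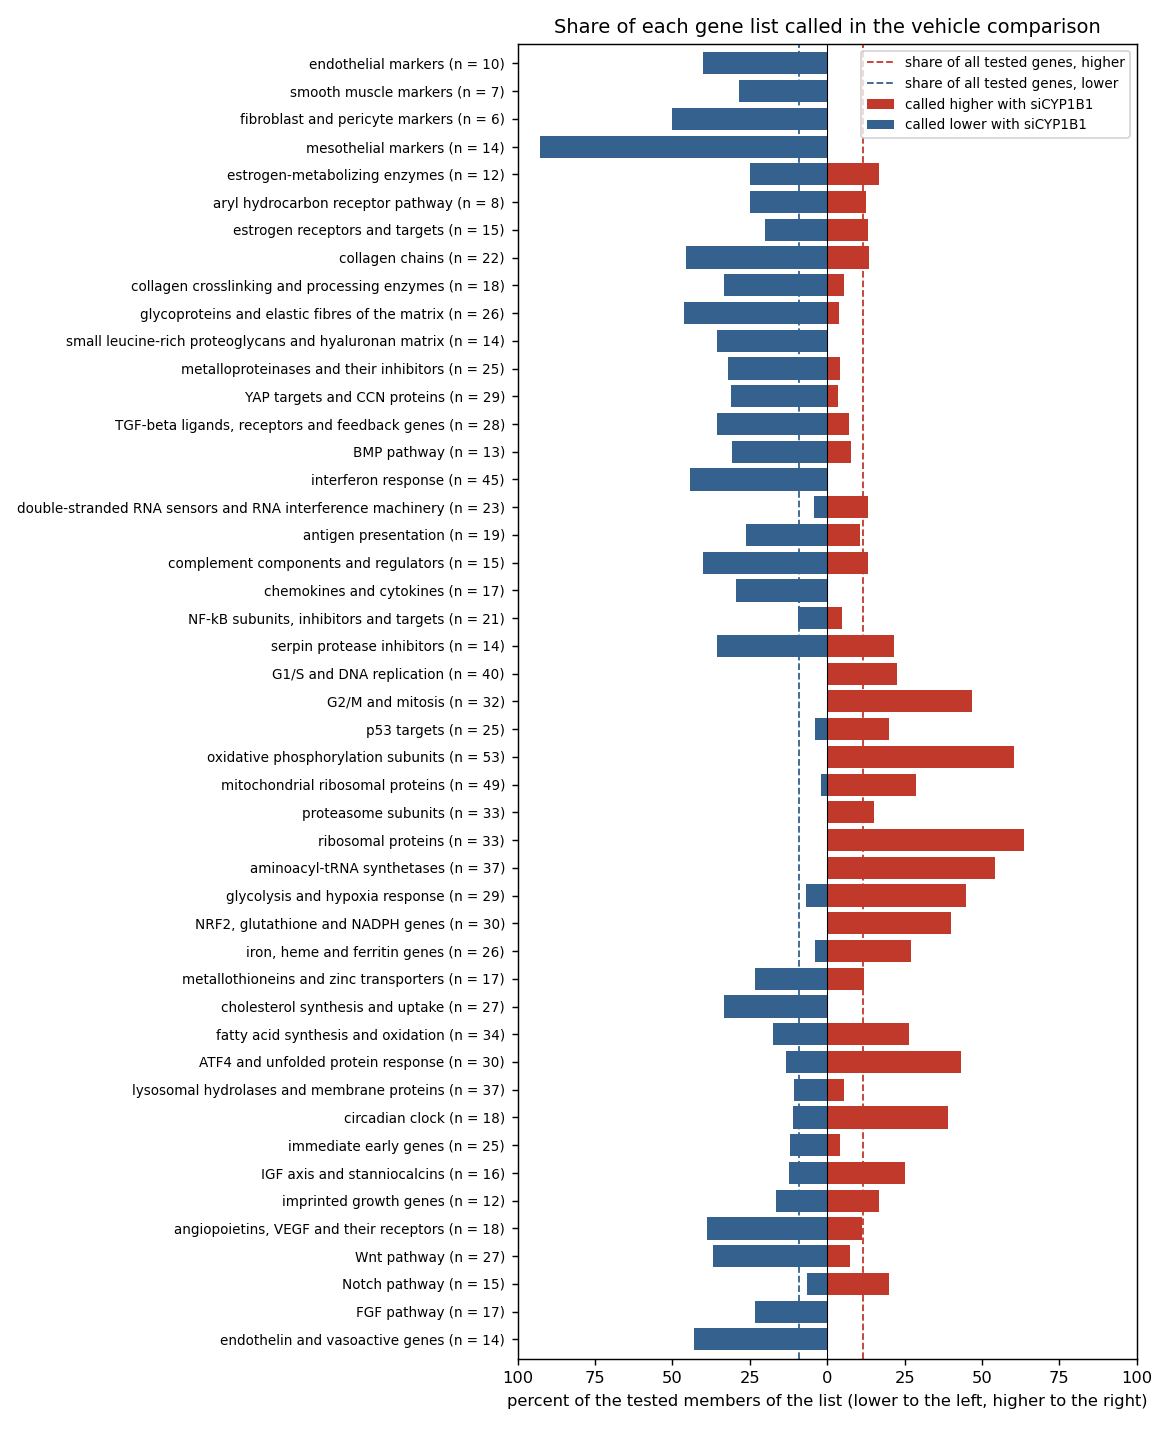
Percent of the tested members of each gene list called lower (blue, to the left) or higher (red, to the right) with siCYP1B1 in vehicle, for lists with at least 6 tested genes; dashed lines mark the shares of all tested genes, 9.13% lower and 11.4% higher. Mesothelial markers stand out on the lower side (13 of 14), and ribosomal proteins (21 of 33) and oxidative phosphorylation subunits (32 of 53) on the higher side. The count of ribosomal proteins is uncertain because of their processed copies.

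Most tested genes of mitochondrial respiration rose, by small amounts. Of 53 nuclear-encoded subunits of oxidative phosphorylation 32 rose and 0 fell (60.4% against 11.4% of all genes, median 0.16), and 24 rose with median-of-ratios factors. Cox5a, a subunit of cytochrome oxidase, had 142, 141 and 144 CPM in siCYP1B1 and 120.1, 119.8 and 111 CPM in scrambled libraries (0.28). Cyc1, the cytochrome of complex III, had 181, 199 and 201 CPM in siCYP1B1 and 160.1, 163 and 153 CPM in scrambled libraries (0.29), and Uqcrc1 of the same complex 206, 225 and 218 CPM in siCYP1B1 and 175, 178 and 181 CPM in scrambled libraries (0.28). The groups did not overlap in these genes. Of 49 mitochondrial ribosomal proteins 14 rose and 1 fell, Mrps15 (-0.27), and with median-of-ratios factors 7 rose and 2 fell. Of 33 proteasome subunits 5 rose and 0 fell, but 1 rose with median-of-ratios factors.

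Many genes that charge transfer RNAs rose. Of 37 aminoacyl-tRNA synthetases 20 rose and 0 fell (median 0.14), and 12 rose with median-of-ratios factors or without the first library of both groups. Cars, the cysteinyl enzyme, had 160.2, 143 and 153 CPM in siCYP1B1 and 122, 116 and 120.2 CPM in scrambled libraries (0.34), and Mars, the methionyl enzyme, 128, 116 and 125 CPM in siCYP1B1 and 95.2, 104 and 103 CPM in scrambled libraries (0.29). Of 30 genes of the ATF4 and unfolded protein responses 13 rose and 4 fell. The risers were led by the mitochondrial folate enzymes Aldh1l2 (0.65) and Shmt2 (0.36) and by Trib3 (0.36), a target of ATF4. Shmt2 had 160.1, 143 and 150.2 CPM in siCYP1B1 and 115, 118 and 119.6 CPM in scrambled libraries. Ribosomal protein genes stood higher in 21 of 33 cases and lower in 0 (14 without the first library of both groups). Their processed copies make single members, and so the count of the list, uncertain. The call of Rpl10 was lost under 9 alternatives and that of Rpl19 under 8.

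Carbon, redox and iron genes showed further rises. On the list of glycolysis and the hypoxia response, 29 genes were tested, 13 rose and 2 fell, and 8 rose without the first library of both groups. Pfkp, a phosphofructokinase, had 152, 157 and 153 CPM in siCYP1B1 and 119, 116 and 128 CPM in scrambled libraries (0.35). Of 30 NRF2, glutathione and NADPH genes 12 rose and 0 fell, and 8 rose with median-of-ratios factors. Hmox1, the heme oxygenase, had 234, 217 and 236 CPM in siCYP1B1 and 198, 184 and 185 CPM in scrambled libraries (0.27), and the glutathione conjugate exporter Abcc4 rose by 0.31. Of 26 iron and heme genes 7 rose and 1 fell under each scaling tried. Tfrc, the transferrin receptor that takes up iron, had 103, 98.1 and 105 CPM in siCYP1B1 and 67.1, 74.4 and 71.96 CPM in scrambled libraries and rose (0.52, SE 0.0535), Fth1 of the iron store rose too, and the copper oxidase Cp fell (-0.63). Mt1, a metallothionein, had 91.2, 88.3 and 96.7 CPM in siCYP1B1 and 76.6, 67.98 and 62.6 CPM in scrambled libraries (0.41).

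Cholesterol genes that passed the test fell, and fatty acid genes moved both ways. Of 27 cholesterol synthesis and uptake genes 9 fell and 0 rose (median -0.13). Idi1, the isopentenyl isomerase, had 169, 178 and 186 CPM in siCYP1B1 and 197, 210.4 and 222 CPM in scrambled libraries (-0.24), Msmo1 fell by 0.24 on the log2 scale and the sterol exporter Abcg1 fell by 0.45, a call that was lost without the first library of both groups (-0.35). Of 34 fatty acid genes 9 rose and 6 fell, and 5 rose with median-of-ratios factors. Cpt1a had 197, 194 and 202 CPM in siCYP1B1 and 146, 150.2 and 150.4 CPM in scrambled libraries, and Pparg, a nuclear receptor of lipid storage and oxidation, had 10.1, 9.70 and 9.61 CPM in siCYP1B1 and 6.14, 6.27 and 6.995 CPM in scrambled libraries (0.54). Plin2, which coats lipid droplets, rose by 0.31, and none of the 6 fatty acid genes that fell is named here.

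Part of the cell cycle and clock genes rose, and most members did not pass the test. Of 32 G2/M genes 15 rose and 0 fell, and 9 rose with median-of-ratios factors or without the first library of both groups. Of 40 G1/S genes 9 rose and 0 fell. Ccne1, the G1/S cyclin, had 118, 125 and 117 CPM in siCYP1B1 and 95.98, 103 and 101 CPM in scrambled libraries (0.26), and Cdc20, the activator of the anaphase complex, had 262, 277 and 287 CPM in siCYP1B1 and 245, 242 and 236 CPM in scrambled libraries (0.19). The largest rise on these lists was 0.26 on the log2 scale. Of 25 p53 targets 5 rose and 1 fell, with Sesn2 (0.33) and Ddit4 (0.30) highest. Of 18 clock genes 7 rose and 2 fell. Dbp, an output gene of the clock, had 59.05, 61.2 and 60.8 CPM in siCYP1B1 and 40.3, 35.8 and 36.00 CPM in scrambled libraries (0.68), and the repressor Nr1d1 had 94.9, 87.1 and 93.7 CPM in siCYP1B1 and 64.9, 61.8 and 59.1 CPM in scrambled libraries (0.56).

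Growth factor and remaining lists were mixed. On the IGF list of 16 genes 4 rose and 2 fell: Stc2, Igf2bp2 (0.34) and Igf2r (0.32, not called without the first library of both groups, 0.22) were among the risers and the binding proteins Igfbp5 and Igfbp4 (-0.33) fell. Of 37 lysosomal genes 2 rose (5.41%) and 4 fell (10.8%), and Cd63, a tetraspanin, led the rises (0.44). Of 17 metallothionein and zinc genes 2 rose and 4 fell, among them the zinc importer Slc39a10 (-0.23). Of 15 estrogen receptor and target genes 2 rose and 3 fell, and of 12 imprinted genes 2 rose and 2 fell. Of 3 nuclear-retained RNAs 0 were called.

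The same siRNA comparison was made in E2 and in 16aOHE, in libraries other than those of vehicle but with the same estimate of spread. It gave 2509 called genes in E2 (21.1%) and 2335 in 16aOHE (19.7%). Of the 1084 genes that fell in vehicle, 779 also fell in E2 (71.9% of the vehicle falls and 67.0% of the E2 falls), 767 fell in 16aOHE (70.8% and 69.3%) and 659 in all 3 arms. Of the 1358 that rose in vehicle, 794 also rose in E2 (58.5% and 59.0%), 706 in 16aOHE (52.0% and 57.5%) and 552 in all 3. Angptl7 differed by -1.84 in vehicle, -1.92 in E2 and -1.61 in 16aOHE. Iigp1 (-0.89, -1.04 and -0.87), Serpinb9 (-0.90, -0.90 and -0.82) and Tfrc (0.52, 0.53 and 0.51) are given in the same order of arms. Mesothelial markers fell in 13, 12 and 13 of 14 cases, and oxidative phosphorylation subunits rose in 32, 29 and 26 of 53. Over all 11870 tested genes 1084, 1163 and 1107 fell and 1358, 1346 and 1228 rose, in the same order of arms. Cyp1b1 itself differed by -0.18, -0.19 and -0.24.

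**Figure D5:**
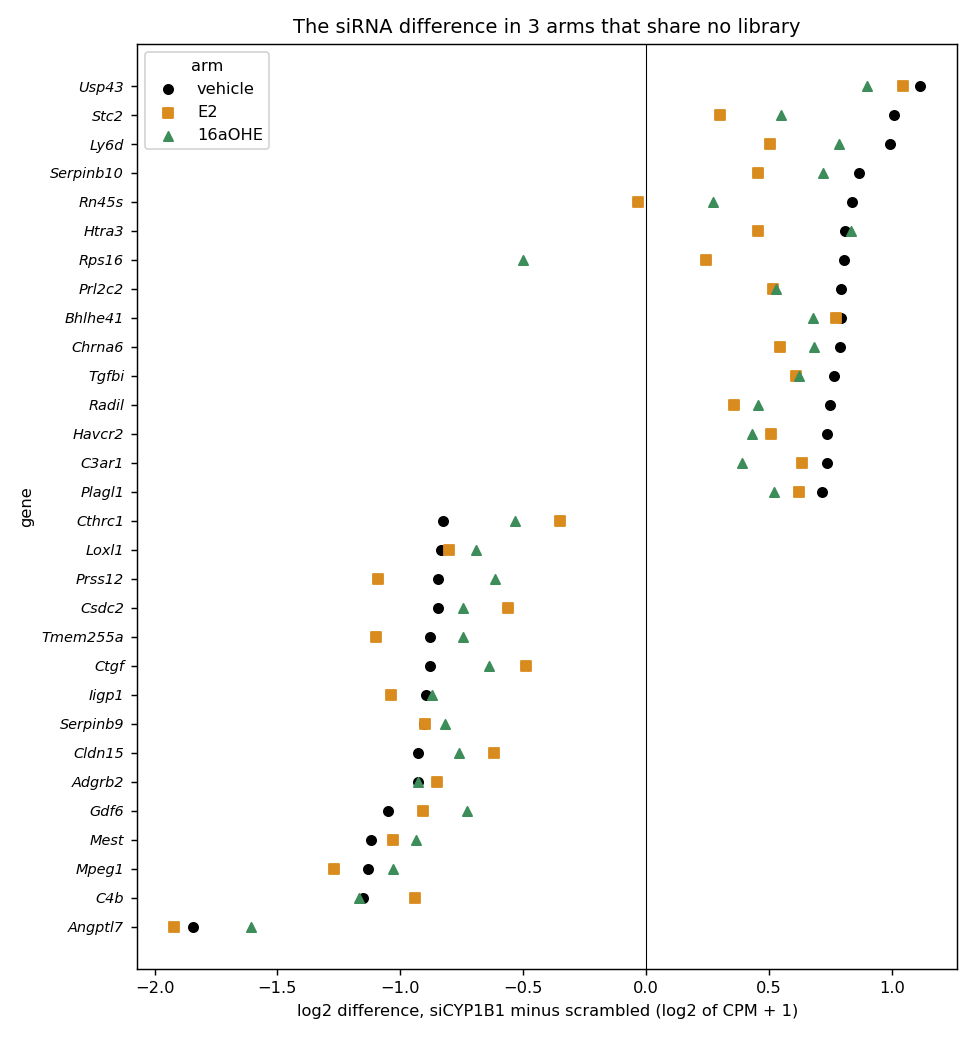
Log2 difference, siCYP1B1 minus scrambled, of the 15 named genes with the largest falls and the 15 with the largest rises in vehicle (circles), with the same difference in E2 (squares) and in 16aOHE (triangles). The falls lie on the same side of 0 in all 3 arms; among the rises Rn45s crosses 0 in E2 and Rps16 in 16aOHE.

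No gene could be called particular to vehicle. The siRNA difference in vehicle minus that in E2 was called for 0 genes (0%), with 470 at an unadjusted p under 0.05, and vehicle minus 16aOHE also for 0 genes (0%), with 594 at an unadjusted p under 0.05. Stc2 came nearest in the first test: its rise was 1.01 in vehicle and 0.30 in E2 (adjusted p = 0.39 for the difference). In the second it was Psmb5, a catalytic subunit of the proteasome, at 0.46 in vehicle and -0.09 in 16aOHE (adjusted p = 0.067). Psmb5 had 20.8, 20.4 and 20.2 CPM in siCYP1B1 and 15.2, 14.2 and 14.4 CPM in scrambled vehicle libraries, with no overlap. It passed that test when the minimum was raised to 10 CPM (adjusted p = 0.0448) and with no trend in the spread (adjusted p = 0.00946), and Rps16 passed it without siCYP1B1 vehicle 3 (adjusted p = 0.0280).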

How the data were processed

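The authors deposited 1 table of CPM values for 15288 genes and 18 libraries, each with an offset of 1e-04, which was subtracted. TopHat2, Partek and mm10 are named per the submitters' processing notes; the sources used here give no version, annotation, strand setting or filter. Low values lie on steps worth 1 read (94.1% to 95.1% of low values in the 6 vehicle libraries came out whole within 0.1 reads), but not all, so they were not treated as counts and no count test was run. Intervals for counting error were not computed.

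Values were tested as log2(CPM + 1) in limma 3.58.1 under R 4.3.3, with moderated variances that follow a trend on mean level: 1 coefficient for each of the 6 groups over 18 libraries, Benjamini-Hochberg over the 11870 genes of each contrast, threshold 0.05. The script was tested on simulated data. Groups came from the labels, which number no replicates; libraries are numbered only to name them. The members and gene lists were chosen with earlier results of these data known. Of the tested genes 97.0% matched a GENCODE M21 transcript (GRCm38, the assembly of mm10), from which UTRs of at least 50 bases were read.

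Named genes were Cyp1b1, the 15 largest changes in each direction among called genes whose 3 against 3 values did not overlap, the 10 largest among those with a mean of at least 100 CPM, and up to 4 called members of each list with the largest change. Predicted genes, pseudogenes and small RNAs were left out, and some results that the rule names are not reported here. Alternatives covered normalization, pseudocount, filter, spread model, samples in the fit and leaving out each library; leaving out both first libraries was added after seeing the third principal component.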

Additional observations from a re-analysis of the deposited data

How the results depend on the processing

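The 2442 calls in vehicle became 2148 to 2576 under other normalizations, pseudocounts, filters, spread models or with the 6 vehicle libraries alone, and 1682 to 2076 with 1 library left out; 63.8% to 99.3% of the calls were shared with each alternative, all in the same direction. Genes called higher numbered 887 with median-of-ratios factors and 836 to 1164 with 1 library left out, and the cause was not tested. Without both first libraries 951 genes were higher and 759 lower. The log2 difference of Cyp1b1 ran from -0.15 to -0.20 over all alternatives and passed in each. The vehicle minus 16aOHE test called 1 gene with a mean of at least 10 CPM, 1 with no trend in the spread and 0 to 1 with 1 library left out; vehicle minus E2 called 0 under each alternative run. Beside Cyp1b1, 53 of the 194 other named genes lost their call under at least 1 alternative and 141 kept it under every alternative that tested them (151 of the 194 were tested at the minimum of 10 CPM); none reversed. The fit of the 6 vehicle libraries alone gives no value for the comparisons between arms. No paired analysis was possible because the labels give no replicate numbers. At 20.9 to 25.2 reads per CPM, genes near 1 CPM rest on few reads, and differences there were less detectable.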

Other observations

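The feature with the largest difference of all was left out by the naming rule as a predicted gene and was picked after its values were seen. Gm6793 had 11.2, 9.65 and 6.80 CPM in siCYP1B1 and 0.0607, 0.257 and 0.0371 CPM in scrambled vehicle libraries, and its log2 difference was 3.17 (adjusted p = 1.98e-05), with 2.01 in E2 and 1.09 in 16aOHE. The table places it at chr2:75659290-75665756, plus strand (mm10), inside the span of Hnrnpa3 (chr2:75659259-75669407, plus strand), a gene of an RNA-binding protein. Hnrnpa3 had 277, 246 and 265 CPM in siCYP1B1 and 276, 271 and 272 CPM in scrambled libraries and was not called (-0.06, adjusted p = 0.409). Reads of the 2 overlapping features cannot be told apart from the deposited values.

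Genes were called in opposite directions in vehicle and in 16aOHE in 4 cases, also picked after their values were seen. Rps16 differed by 0.80 in vehicle and -0.50 in 16aOHE, Atp5g2 by 0.64 and -0.51, Lsm7 by 0.59 and -0.50, and Rpl15 by 0.18 and -0.19. The tests of vehicle minus 16aOHE did not call them over all genes, with adjusted p = 0.0779 for Rps16, 0.189 for Atp5g2, 0.263 for Lsm7 and 0.134 for Rpl15. On the list of ribosomal proteins, which holds Rps16 and not Rpl15, 21 of 33 tested genes rose in vehicle, 13 in E2 and 8 in 16aOHE, where 1 fell. Over all 11870 tested genes 1358 rose in vehicle, 1346 in E2 and 1228 in 16aOHE, where 1107 fell. In the 2 libraries siCYP1B1 16aOHE 2 and 3 the score on the third principal component was -13.4 and -6.77, the lowest of the 18, and its part in the values of 16aOHE was not tested.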
